A study of Rattus norvegicus with 4 samples.

Results

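Histone genes were examined in the RNA-seq counts of cultured rat Schwann cells (SCs), the glia of peripheral nerves, after lentiviral expression of the Egr2-AS, an antisense RNA to the promoter of the myelin regulator Egr2. The members were the rows of the count table whose gene symbol begins with Hist1h to Hist4h, H1f, H1-, H2a, H2b, H3f, H3c or H4c. This gave 38 of the 17949 genes in the table. By their symbols, 26 were replication-dependent histone genes and 12 were replacement histone genes, 1 of which (H2afj&1) was a further copy of a gene with its own row and was kept apart. H3f3a and H1fx, replacement histones whose symbols would also fit, were not among these rows, so they could not be analysed.

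The 4 samples were primary rat SCs from sciatic nerve, grown in 10% FBS with 4 μM forskolin and 5 ng/ml heregulin-β1, agents that both groups received and that act as mitogens for these cells. The Lenti-AS samples (n = 2) were infected for 48 h with the lentivirus carrying the Egr2-AS, and the Lenti-GFP samples (n = 2) for the same time with a control virus carrying GFP, both at 2 virus units per cell. The vector for the Egr2-AS carried DsRed in place of GFP, so the reporter differed between the groups too. Each replicate was a biological one by the labels, and neither the strain, age or sex of the donor rats nor the number of cell preparations was given in the sources used here.

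The SC labels were checked against marker genes. S100b, a calcium-binding protein of SCs, was at 2027.2 to 2357.5 CPM (counts relative to the library total, scaled by edgeR's TMM factors), and Erbb3, a heregulin co-receptor of SCs, was at 448.1 to 561.6 CPM. None of the 10 SC markers was called in the comparison of the groups. Of 7 fibroblast markers, Dcn, Lum and Thy1 stayed at or below 0.0321 CPM in every sample, and Pdgfra was at 3.09 to 4.07 CPM. The collagen genes of the list were expressed and varied between the Lenti-AS replicates, with Col1a1 at 840.5 and 720.8 CPM in Lenti-GFP and at 2131.2 and 290.1 CPM in Lenti-AS, and Col1a2 between 119.6 and 339.6 CPM. Postn, at 3579.8 to 6426.4 CPM, was lower in Lenti-AS (log2 fold change -0.77, edgeR adjusted p = 0.0144), and the summed fibroblast markers ranged from 7164.7 to 7284.7 CPM in Lenti-GFP and from 3993.3 to 6270.5 CPM in Lenti-AS. Summed macrophage markers were at 3.27 to 4.31 CPM, with Aif1 at 0 in all samples but Lenti-AS 1. Summed erythroid markers were at 3.92 to 7.27 CPM in the other samples and at 3002.1 CPM in Lenti-AS 2, through globin transcripts, so this library stood apart. Its counts were also the fewest, at 74024323, against 87084735 to 96185890 in the other samples. The part of these differences in the histone values was not tested. The level of the Egr2-AS was not analysed here, so it gives no check of the labels. Egr2 itself was at 49.2 and 42.1 CPM in Lenti-GFP and at 61.2 and 54.0 CPM in Lenti-AS, wholly higher but not called (log2 fold change 0.33 ± 0.11, edgeR adjusted p = 0.152, DESeq2 adjusted p = 0.0336 below the fold threshold). The strand setting of the counting is not given, so reads of Egr2 and of an antisense RNA over its exons cannot be told apart.

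Histones package DNA. Pairs of H2A, H2B, H3 and H4 form the nucleosome core, and linker histone H1 binds where DNA enters and leaves it. Replication-dependent histone genes lie in clusters, lack introns and are transcribed mainly in S phase, when new DNA must be packaged, and most of their mRNAs end in a stem-loop in place of a poly(A) tail. Replacement histone genes lie singly, are transcribed through the cell cycle and give polyadenylated mRNAs for proteins such as H3.3 and H2A.Z, which enter chromatin outside replication. SCs divide in culture in the presence of forskolin and heregulin.

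The promoters of 5 members are shown because they span the comparison: a linker, an H2B and an H3 gene of the replication-dependent class that were called higher in Lenti-AS, the called replacement gene H2afx, and H3f3b, which had the most counts of the replacement class. Each is the 250 bases before the RefSeq start in the GRCr8 assembly, read 5′ to 3′ on the strand of the gene, with matches to the motifs searched in capitals.
Hist1h1b, chr17:47421625-47421874, plus strand: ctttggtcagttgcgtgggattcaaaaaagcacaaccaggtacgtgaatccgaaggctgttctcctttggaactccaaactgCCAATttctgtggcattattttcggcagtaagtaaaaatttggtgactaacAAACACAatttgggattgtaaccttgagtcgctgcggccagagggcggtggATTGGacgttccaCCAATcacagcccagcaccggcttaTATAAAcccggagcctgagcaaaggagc
Hist1h2bk, chr17:47181941-47182190, minus strand: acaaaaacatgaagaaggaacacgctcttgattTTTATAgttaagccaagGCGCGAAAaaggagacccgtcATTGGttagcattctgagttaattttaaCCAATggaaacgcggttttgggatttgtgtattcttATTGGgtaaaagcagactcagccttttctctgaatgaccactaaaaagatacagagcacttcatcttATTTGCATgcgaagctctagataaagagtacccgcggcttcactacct
Hist2h3c2, chr2:186525912-186526161, plus strand: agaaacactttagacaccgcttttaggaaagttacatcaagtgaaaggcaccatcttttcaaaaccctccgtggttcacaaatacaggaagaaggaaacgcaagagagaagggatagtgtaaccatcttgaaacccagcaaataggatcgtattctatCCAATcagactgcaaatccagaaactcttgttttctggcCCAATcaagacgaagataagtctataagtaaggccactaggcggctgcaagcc
H2afx, chr8:53568468-53568717, plus strand: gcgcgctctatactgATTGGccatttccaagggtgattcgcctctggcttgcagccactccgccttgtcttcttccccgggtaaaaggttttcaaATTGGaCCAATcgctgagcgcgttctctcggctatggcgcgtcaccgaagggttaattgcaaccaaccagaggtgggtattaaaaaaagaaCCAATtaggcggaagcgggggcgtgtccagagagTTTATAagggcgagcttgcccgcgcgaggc
H3f3b, chr10:101757637-101757886, minus strand: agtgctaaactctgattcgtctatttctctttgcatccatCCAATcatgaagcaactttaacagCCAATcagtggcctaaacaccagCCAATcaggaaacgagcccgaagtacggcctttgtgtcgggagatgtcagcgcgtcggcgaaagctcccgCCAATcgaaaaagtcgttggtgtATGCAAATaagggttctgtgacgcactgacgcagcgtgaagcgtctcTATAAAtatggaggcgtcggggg

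A RefSeq promoter of this length was found for 32 of the 38 members, 21 replication-dependent and 11 replacement. Motifs were searched on both strands as exact letters, and none contains another. The letters were TATAAA for the TATA box, the CCAAT box by its own name, and ATTTGCAT for the octamer that Pou2f1 binds. The H1 box was searched as AAACACA, and the E2F site as TTTCCCGC, TTTGGCGC or TTTCGCGC. The CCAAT box was in 90.5% of the replication-dependent, 63.6% of the replacement and 34.0% of all 33469 RefSeq promoters of the same length. The octamer was in 42.9%, 9.09% and 1.56% of them, and the TATA box in 57.1%, 18.2% and 12.9%, respectively. The H1 box was in 19.0%, 9.09% and 6.08%, and the E2F site in 4.76%, 0% and 1.41%. Among the called members, Hist1h1a, Hist1h1b, Hist1h2ah, Hist1h2bk and H2afx had a TATA box, and Hist1h2ail1 and Hist2h3c2 had none. For the remaining called member, Hist1h1d, no promoter was used. A match describes only the letters in the window.

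The comparison of Lenti-AS with Lenti-GFP asks which transcripts differ when SCs express the Egr2-AS. Some replication-dependent histone genes had higher transcript levels in Lenti-AS, most of the others had smaller differences that did not pass the test, and 1 replacement histone gene was higher. Of the 26 replication-dependent genes, 7 rose and 0 fell, at an adjusted p under 0.05 and a fold change of at least 1.3 (edgeR's quasi-likelihood test, Benjamini-Hochberg adjustment over 12446 genes). Those that rose were the linker histones Hist1h1a, Hist1h1b and Hist1h1d, the core histones Hist1h2ah, Hist1h2ail1 and Hist1h2bk, and Hist2h3c2. The 7 genes are 26.9% of the class, where 1.31% of all genes tested were called higher and 0.667% lower. Of the 12 replacement genes, 10 had enough counts to be tested, 1 (H2afx) rose and 0 fell. DESeq2, run as an alternative, called 9 replication-dependent genes and H2afx higher and none lower, against 3.92% of all genes tested higher and 1.12% lower.

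The direction was shared more widely than the calls. In 23 of the 26 replication-dependent genes both Lenti-AS samples lay above both Lenti-GFP samples, against 27.7% of all genes tested. The groups overlapped in the other 3 (Hist2h2ab, Hist1h2ba and Hist3h3), and none had Lenti-AS wholly lower. The fitted log2 fold change of the class had a median of 0.30 and a range of -0.20 to 0.69, where the median over all genes tested was 0.01. At an unadjusted p under 0.05, 19 of the 26 were higher and 0 lower, against 12.5% and 9.37% of all genes tested. Among the 10 replacement genes tested, Lenti-AS lay wholly higher in 5 and wholly lower in 2 (27.2% of all genes tested were wholly lower), and the groups overlapped in 3, with a median log2 fold change of 0.02. These counts describe the lists, since members with near-identical sequences can share reads and are not independent of each other.

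**Figure D1:**
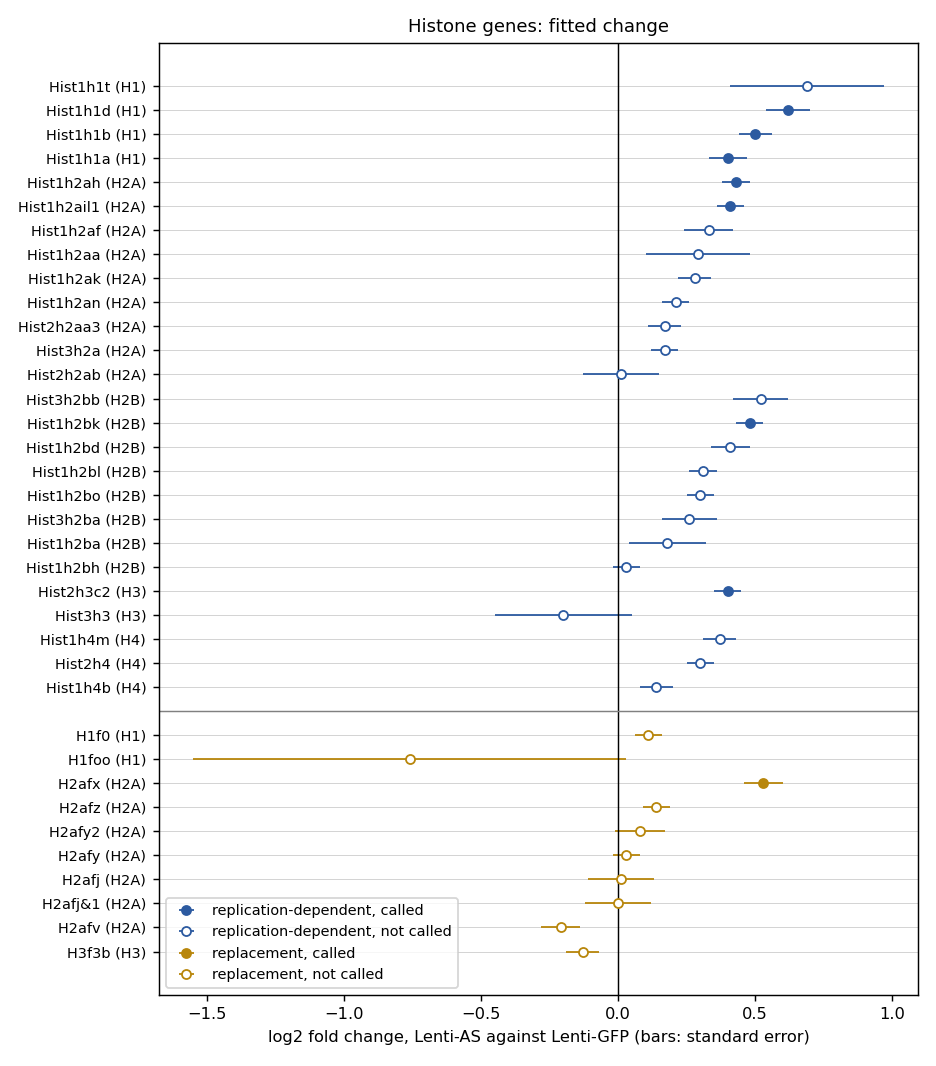
Fitted log2 fold change of each tested histone gene, Lenti-AS against Lenti-GFP (n = 2 each), with its standard error, replication-dependent genes above the grey line and replacement genes below; filled points were called. Of 26 replication-dependent genes, 25 lie to the right of 0, while the replacement genes other than H2afx lie between -0.76 and 0.14.

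Among the families with more than 1 called gene, the linker histones had the larger fitted values, with a median log2 fold change of 0.56 over 4 genes against 0.28 over the 9 H2A genes. Hist1h1d encodes a main somatic H1 subtype, and its level was 204.3 and 220.5 CPM after Lenti-GFP and 347.1 and 306.3 CPM after Lenti-AS. The groups were clearly apart, with a gap of 85.8 CPM between the highest Lenti-GFP and the lowest Lenti-AS sample. The log2 fold change was 0.62 ± 0.08 (SE, n = 2 per group, edgeR adjusted p = 0.0276). Hist1h1b, another somatic subtype, was at 147.6 and 158.4 CPM in Lenti-GFP and at 220.2 and 213.7 CPM in Lenti-AS. Its log2 fold change was 0.50 ± 0.06 (edgeR adjusted p = 0.0252). Hist1h1a was at 70.3 and 73.3 CPM in Lenti-GFP against 97.5 and 92.5 CPM in Lenti-AS (0.40 ± 0.07, edgeR adjusted p = 0.0463), and its groups did not overlap either. The testis linker histone Hist1h1t, named after its values were seen, had the highest fitted value of the class (0.69 ± 0.28) but only 0.770 to 1.65 CPM, and it was not called (edgeR adjusted p = 0.231). Summed over the 4 genes, H1 transcripts were 1.46 times as high in Lenti-AS, from 438.1 ± 21.0 to 640.1 ± 36.7 CPM (SD, n = 2).

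Among 9 replication-dependent H2A genes, 2 rose. Hist1h2ah was at 144.8 and 152.6 CPM in Lenti-GFP and at 199.8 and 200.7 CPM in Lenti-AS (log2 fold change 0.43 ± 0.05, edgeR adjusted p = 0.0276). Hist1h2ail1 was at 160.9 and 159.1 CPM against 216.7 and 208.2 CPM (0.41 ± 0.05, edgeR adjusted p = 0.0285). In both, the Lenti-AS samples stood apart from the Lenti-GFP samples, by 47.2 and 47.3 CPM. The H2A genes with the most counts differed less and did not pass the test. Hist3h2a was at 221.6 and 224.9 CPM in Lenti-GFP and at 250.5 and 250.3 CPM in Lenti-AS (0.17 ± 0.05, edgeR adjusted p = 0.140). Hist1h2an was at 209.5 and 204.2 CPM against 244.0 and 234.9 CPM (0.21 ± 0.05, edgeR adjusted p = 0.106). The other 5 genes had log2 fold changes of 0.01 to 0.33. Summed H2A transcripts were 1.21 times as high in Lenti-AS.

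Of the 8 replication-dependent H2B genes, only Hist1h2bk rose. It was at 124.1 and 118.9 CPM in Lenti-GFP and at 170.0 and 167.8 CPM in Lenti-AS, with replicates within a few CPM of each other (0.48 ± 0.05, edgeR adjusted p = 0.0250). Hist1h2bl was at 584.6 and 591.7 CPM against 711.2 and 742.8 CPM (0.31 ± 0.05, edgeR adjusted p = 0.0506). It just missed the adjusted p threshold and, at 1.24, also lay below the fold threshold. Hist1h2bh differed little between the groups. It held the most counts of the class, 16.2% to 19.5% of all replication-dependent counts, and was at 822.5 and 825.5 CPM in Lenti-GFP and at 841.5 and 836.6 CPM in Lenti-AS. Its log2 fold change was 0.03 ± 0.05 (edgeR adjusted p = 0.790). The other 5 H2B genes had log2 fold changes of 0.18 to 0.52, of which Hist1h2bd (edgeR adjusted p = 0.0543) and Hist3h2bb (0.0607) were called by DESeq2. Summed H2B transcripts were 1.15 times as high in Lenti-AS, or 1.26 times without Hist1h2bh.

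The remaining core histones were H3 and H4. Hist2h3c2, which encodes a canonical H3, was at 188.5 and 191.6 CPM in Lenti-GFP and at 249.5 and 252.7 CPM in Lenti-AS, and it rose (0.40 ± 0.05, edgeR adjusted p = 0.0276). Hist3h3, a testis H3 named after its values were seen, was at 9.24, 10.0 and 10.6 CPM in the other samples and at 6.19 CPM in Lenti-AS 2 (-0.20 ± 0.25, edgeR adjusted p = 0.677). Its fitted value was the lowest of the class, and its groups overlapped. None of the 3 H4 genes was called. Hist1h4m was at 228.6 and 224.7 CPM against 300.6 and 283.5 CPM and passed the adjusted p (0.37 ± 0.06, edgeR adjusted p = 0.0419) but not the fold, at 1.29. Hist2h4 was at 309.3 and 294.9 CPM against 377.9 and 367.4 CPM (0.30 ± 0.05, edgeR adjusted p = 0.0559). Hist1h4b was at 282.5 and 278.7 CPM against 323.1 and 296.8 CPM (0.14 ± 0.06, edgeR adjusted p = 0.241). Lenti-AS thus lay wholly above Lenti-GFP in all 3 H4 genes, and their summed level was 1.2 times as high.

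**Figure D2:**
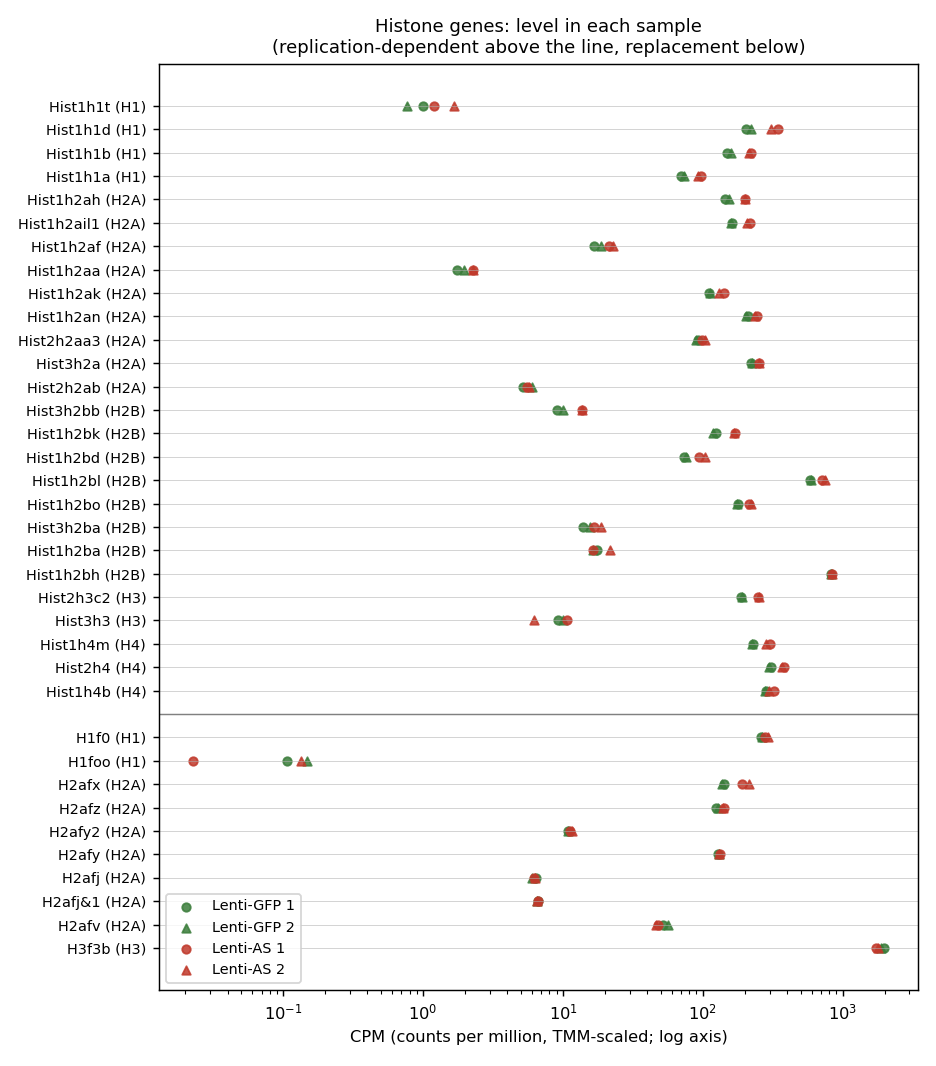
Level of each tested histone gene in each sample, in TMM-scaled CPM on a log axis (green, Lenti-GFP; red, Lenti-AS; circles, replicate 1; triangles, replicate 2), ordered as in the plot of fitted changes. CPM is not divided by gene length, so points are to be compared within a row, where the red points lie right of the green ones in 23 of 26 replication-dependent genes.

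Some members lie next to each other in RefSeq gene order (GRCr8), and their fitted values differed to varying degrees. Hist1h4b (log2 fold change 0.14) neighbours the called Hist1h2bk (0.48). Hist3h2ba (0.26), Hist3h2bb (0.52), Hist3h2a (0.17) and Hist3h3 (-0.20 ± 0.25) follow one another. Closer values were seen for Hist1h2aa (0.29) beside Hist1h2ba (0.18), and for Hist1h2bd (0.41) beside Hist1h2ak (0.28). The differences between neighbours were not tested.

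H2afx was the exception among the replacement genes. It encodes H2A.X, the H2A variant that is phosphorylated around DNA breaks, and its mRNA can end either in a stem-loop or in a poly(A) tail. It was at 141.3 and 137.0 CPM in Lenti-GFP and at 188.9 and 212.6 CPM in Lenti-AS, so the groups were 47.6 CPM apart. The log2 fold change was 0.53 ± 0.07 (edgeR adjusted p = 0.0328). With H2afx counted as replication-dependent, 8 replication-dependent and 0 replacement genes were called. The median log2 fold changes were then 0.31 and 0.01.

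The other replacement genes differed little between the groups. H3f3b, an H3.3 gene that held 67.7% to 73.0% of the counts of its class, was at 1969.2 and 1875.9 CPM in Lenti-GFP and at 1733.3 and 1771.6 CPM in Lenti-AS (log2 fold change -0.13 ± 0.06, edgeR adjusted p = 0.233). H1f0, the linker histone of differentiated and resting cells, was at 259.6 and 264.6 CPM against 276.2 and 290.7 CPM (0.11 ± 0.05, edgeR adjusted p = 0.285). Both had groups that did not overlap, in opposite directions, and neither passed the test.

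The H2A.Z genes split in the same way. H2afz was at 124.9 and 128.5 CPM in Lenti-GFP and at 141.3 and 138.7 CPM in Lenti-AS (0.14 ± 0.05, edgeR adjusted p = 0.196). H2afv, which encodes the other H2A.Z protein, was at 52.3 and 56.0 CPM against 47.6 and 46.3 CPM (-0.21 ± 0.07, edgeR adjusted p = 0.177). The macroH2A genes, whose products carry a large extra domain and mark silent chromatin, had smaller differences. H2afy was at 127.5 and 130.6 CPM against 132.9 and 131.2 CPM (0.03 ± 0.05, edgeR adjusted p = 0.744). H2afy2 was at 10.8 and 10.9 CPM against 11.3 and 11.6 CPM (0.08 ± 0.09, edgeR adjusted p = 0.659).

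The lowest replacement members gave little to compare. The copy row H2afj&1 was at 6.61 and 6.48 CPM in Lenti-GFP and at 6.61 and 6.47 CPM in Lenti-AS, a fold change of 0.999, and H2afj itself was between 6.03 and 6.36 CPM in all samples. H1foo, the oocyte linker histone, was at 0.0228 to 0.148 CPM (-0.76 ± 0.79, edgeR adjusted p = 0.606). H1fnt, a linker histone of spermatids, had 0 counts in all 4 samples, and H2afb3 had 2 counts, both in Lenti-AS 1, so neither was tested.

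The classes were also compared by their summed levels. Replication-dependent transcripts summed to 4225.8 and 4252.0 CPM in the Lenti-GFP replicates and to 5184.3 and 5106.2 CPM in the Lenti-AS replicates. Both Lenti-AS samples lay above both Lenti-GFP samples, by 1.21 times in the means. Replacement transcripts summed to 2698.7 and 2616.0 CPM with Lenti-GFP against 2544.4 and 2615.6 CPM with Lenti-AS, 0.971 times in the means. The replacement sum turned with 1 gene: without H3f3b it was 1.13 times as high in Lenti-AS, at 729.5 and 740.1 CPM against 811.1 and 844.0 CPM. The ratio of the sums, which needs no scaling between libraries, was 1.57 and 1.63 in Lenti-GFP and 2.04 and 1.95 in Lenti-AS, 1.25 times as high. Without the member with the most counts in each class the ratio was still 1.12 times as high, at 4.66 and 4.63 against 5.35 and 5.06. The sums and ratios are descriptions, and neither they nor the difference between the classes were tested. For a single value, an exact permutation test of 2 against 2 samples cannot give a two-sided p under 0.333. In bulk RNA, more cells in S phase and more histone mRNA in each such cell cannot be told apart.

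**Figure D3:**
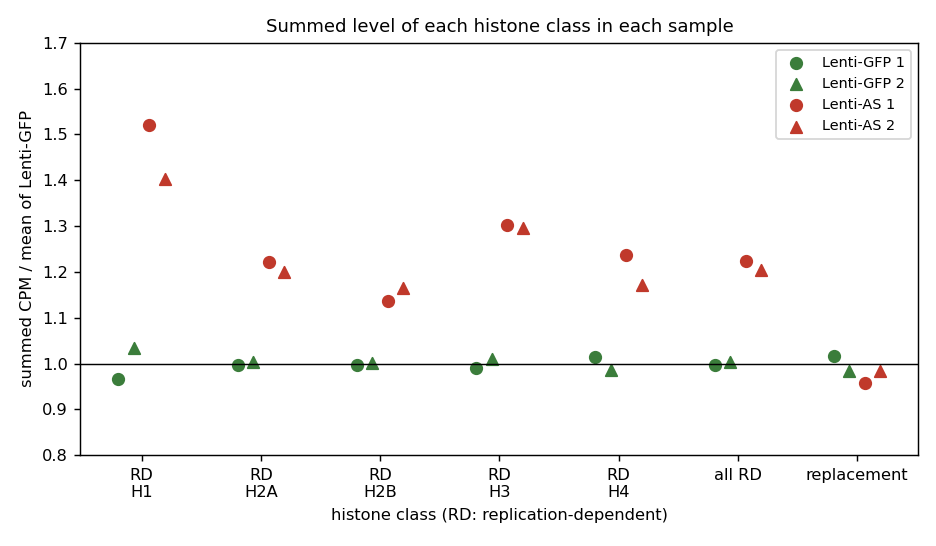
Summed CPM of each histone class or family in each sample, divided by the mean of the Lenti-GFP samples (green, Lenti-GFP; red, Lenti-AS; RD, replication-dependent; the vertical axis starts at 0.8). Both Lenti-AS samples lie above both Lenti-GFP samples in every RD family, in H1 by 1.46 times in the means, while the replacement sums lie close to 1.

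The factors that act on replication-dependent histone mRNA were also examined. Of 21 listed genes for its transcription and 3′ end processing, 15 were in the table and tested, and 0 were called in edgeR or in DESeq2. At an unadjusted p under 0.05 there were 2 higher and 1 lower. Over all genes tested, 1.31% were called higher by edgeR and 12.5% were higher at an unadjusted p under 0.05, so counts this small in 15 genes are near the background. Their median log2 fold change was 0.03. Slbp, which binds the stem-loop, was at 62.1 and 61.4 CPM in Lenti-GFP and at 66.6 and 65.8 CPM in Lenti-AS (0.10 ± 0.06, edgeR adjusted p = 0.405). Npat, the coactivator of histone gene transcription in S phase, was at 92.1 and 95.1 CPM against 97.0 and 93.8 CPM (0.03 ± 0.06, edgeR adjusted p = 0.814).

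Histone chaperones and exchange factors, listed with the centromeric H3 variant Cenpa, had 26 of 32 genes tested, of which 2 rose (7.69%, against 1.31% of all genes tested) and 0 fell, with a median log2 fold change of 0.14. Cenpa was at 8.63 and 8.66 CPM in Lenti-GFP and at 12.7 and 13.4 CPM in Lenti-AS (0.59 ± 0.10, edgeR adjusted p = 0.0463). Mms22l, a partner of Tonsl at damaged replication forks, was at 26.4 and 27.7 CPM against 37.3 and 35.4 CPM (0.42 ± 0.07, edgeR adjusted p = 0.0463). Its groups were apart, as were those of Cenpa. DESeq2 called 6 of the list higher, against 3.92% of all genes tested.

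Genes of the cell cycle were set beside the histone genes. Of 22 genes of DNA synthesis, 4 rose (Mcm3, Mcm5, Rrm2 and Ccna2, or 18.2%, against 1.31% of all genes tested) and 0 fell (0.667% of all genes), with a median log2 fold change of 0.33. Pcna, the sliding clamp of DNA polymerases, was at 263.8 and 261.0 CPM in Lenti-GFP and at 298.7 and 282.7 CPM in Lenti-AS and was not called (0.15 ± 0.05, edgeR adjusted p = 0.198). Of 17 genes of mitosis tested, 15 rose (88.2%) and 0 fell, with a median of 0.55. Mki67, a marker of cycling cells, was at 197.9 and 235.8 CPM against 361.9 and 359.5 CPM (0.73 ± 0.09, edgeR adjusted p = 0.0264). The ratio of summed replication-dependent histone to summed DNA synthesis transcripts was 3.53 in both Lenti-GFP samples and 3.56 in both Lenti-AS samples, a comparison chosen after the values were seen. The ratio to mitosis transcripts was 3.17 and 3.06 in Lenti-GFP and 2.62 in both Lenti-AS samples, 0.84 times as high in the means. The ratio of replacement histone to DNA synthesis transcripts was 2.25 and 2.17 against 1.75 and 1.82.

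**Figure D4:**
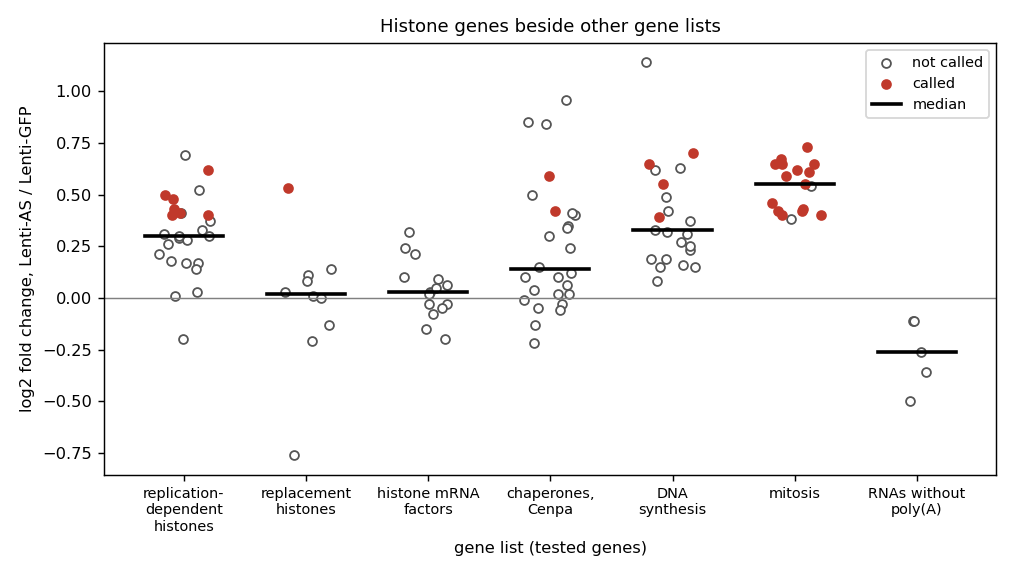
Fitted log2 fold change of each tested gene in the histone classes and in the other gene lists, with the median of each list as a bar and called genes filled. The replication-dependent histone median (0.30) lies close to that of DNA synthesis (0.33), below mitosis (0.55), and above the replacement histones (0.02) and the histone mRNA factors (0.03).

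Since most replication-dependent histone mRNAs lack a poly(A) tail, other RNAs without one were examined. Of 8 such RNAs in the table, 5 were tested, with a median log2 fold change of -0.26. edgeR called 0 of them, against 0.667% of all genes tested lower and 1.31% higher. DESeq2 called Terc lower (log2 fold change -0.50, DESeq2 adjusted p = 0.0134), against 1.12% of all genes tested. At an unadjusted p under 0.05 edgeR had 2 lower and 0 higher, against 9.37% and 12.5% of all genes tested. Their sum was 62277.5 and 68018.8 CPM in Lenti-GFP and 60534.2 and 51440.1 CPM in Lenti-AS, most of it the RNase P RNA Rpph1, and it was lowest in Lenti-AS 2. The fitted values of all 5 lay below 0, where 25 of the 26 replication-dependent histone genes lay above it. Over all 12446 genes tested, 6385 lay above 0. The 5 include Rn7sl1 and a copy row of it (Rn7sl1&1), so they are not all separate RNAs. How RNA was selected for the libraries was not given in the sources used here, and its part in the histone values was not tested.

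The number of calls depended on which library was left out. A lone sample was then assumed to vary like the other group. Averaged over the tested genes, the chi-square between replicates was 103.3 in Lenti-AS and 32.44 in Lenti-GFP. Genes with many counts, such as Hbb at 323 and 125355 counts in Lenti-AS, weigh most in this average. It is therefore no measure of a typical gene. The part of the replicate differences in the calls was not tested. With either Lenti-GFP sample left out, 0 of the histone genes were called, and 1 gene was called over all genes tested. Without Lenti-AS 2, the library with globin transcripts, 10 histone genes were called, including the 8 called with all samples, while the calls over all genes in either direction went from 246 (1.98%) to 1515 of 12336 (12.3%). Without Lenti-AS 1, 11 were called, of which 7 were among these 8, with Hist1h1a lost, and 845 of 12280 genes (6.88%) were called in all. The histone counts without a Lenti-AS sample thus stand beside a raised background. The median log2 fold change of the replication-dependent genes stayed between 0.30 and 0.35 when any 1 sample was left out.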

How the data were processed

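RNA-seq was performed on 4 samples of rat SCs, 2 per group, with 50 bp paired-end reads from 2 μg of RNA each. The authors deposited whole-number counts per gene, not normalized, made with featureCounts over RefSeq exons of rn6. The paper names hisat2 as the aligner, while the submitters' processing notes name GSNAP. Versions, strand and the treatment of reads with several matches are not given in the sources used here, so counts of near-identical histone genes, of overlapping genes and of genes with antisense transcripts are uncertain. Samples were grouped by their labels, and 1 repeated header line was dropped. All 4 sample columns were used and 0 were left unmapped.

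Total counts were 94061942 and 96185890 in Lenti-GFP and 87084735 and 74024323 in Lenti-AS. TMM factors lay between 0.986 and 1.02, and the biological coefficient of variation was 12.1%. A gene needed 10 or more counts in 2 or more samples, which left 12446. These were tested in R 4.3.3 with edgeR 4.0.16 (glmQLFit, glmQLFTest, no covariate), with Benjamini-Hochberg adjustment over all of them. A call needed an adjusted p under 0.05 together with a fold change of at least 1.3, the cut-offs of the study. The script was also run on simulated counts with known changes. Their spread was set equal in both groups and lower than in these data, so that run is no check of the calls made here. Alternatives were DESeq2 1.42.0, limma-voom (limma 3.58.1), the likelihood ratio test, other scaling and count filters, copies summed, a replicate block and leaving out each sample.

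The members, gene lists and markers were chosen with earlier results of these data known. Named genes were every called member, the 8 members of each class with the highest mean CPM, every called gene of the histone mRNA and chaperone lists, and Slbp, Npat, Cenpa, Pcna and Mki67. Promoters were taken from RefSeq (GRCr8), 12 members matching by symbol and 21 by synonym, and 4 matching more than 1 gene were left out.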

Additional observations from a re-analysis of the deposited data

How the results depend on the processing

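Of the histone genes, 8 to 10 were called under the other scalings, count filters, tests and the sum over copies, and the 8 called with the main test were among them each time (DESeq2 and the likelihood ratio test added Hist1h2bd and Hist3h2bb). The exceptions were the replicate block and leaving out a Lenti-GFP sample. Samples that share a replicate number were not alike in their deviations from the group means (correlation -0.0176). With 2 samples per group, this single value over genes cannot tell whether such samples were prepared together. A pairing was thus neither shown nor excluded. With the replicate block 0 replication-dependent, 0 replacement and 0 pathway list genes were called (7, 1 and 21 without it), 17 were called over all genes (246 without it), and the 8 members had edgeR adjusted p-values of 0.0760 to 0.112. Leaving out 1 sample gave 0 to 10 replication-dependent, 0 to 1 replacement, 0 to 37 pathway list genes and 1 to 1515 of all genes, where a lone sample was assumed to vary like the other group. Over all genes, 521 were called by the likelihood ratio test and 627 by DESeq2.

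On library totals the median log2 fold change was 0.34 for replication-dependent and 0.06 for replacement genes, while the median of all genes moved to 0.04, and the sums were 1.24 and 0.993 times as high. With at least 100 counts the replacement median was 0.04. Leaving out 1 sample gave medians of 0.30 to 0.35 and 0.02 to 0.04. Without the member with the most counts the sums were 1.26 and 1.13 times as high, their ratio 1.12, and the ratio to DNA synthesis transcripts 1.03. The fitted value of H2afj&1, close to 0, changed sign with upper-quartile factors (0.0091), library totals (0.03), at least 100 counts (0.0027) and, between -0.02 and 0.02, with 1 sample left out. The cause of these shifts was not tested.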
